A study of Mus musculus with 4 samples.

Results

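Th17 cells are helper T cells that make interleukin 17, and a small group of transcription factors sets up and maintains their gene programme. The genes described here are 8 of them, Rora, Batf, Irf4, Maf, Ahr, Ikzf3, Bhlhe40 and Nfil3, chosen by name from the 17921 genes of the deposited expression table, in which each has 1 entry. RNA was sequenced from 4 cultures of Th17 cells, 2 from PRAK knockout (KO) mice and 2 from wild-type (WT) mice. PRAK is a protein kinase downstream of p38, encoded by Mapkapk5. Naive CD4+ T cells enriched from each mouse were driven towards Th17 cells in culture for 72 h, and the whole culture was harvested on day 3, so the RNA includes any other cells that had come through the enrichment. All 4 cultures received the same Th17 differentiation treatment and differ in the labels by genotype and mouse number, with 1 library per mouse (called WT 1, WT 2, KO 1 and KO 2). The labels give neither the knocked-out part of the gene, nor the strain, age or sex of the mice, nor the cytokines used.

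BATF, a basic leucine zipper protein that pairs with JUN proteins, and IRF4, an interferon regulatory factor induced by T cell receptor signals, bind composite sites together and open Th17 genes early in differentiation. ROR alpha, the nuclear receptor encoded by Rora, then acts at cytokine genes, while the ligand-activated receptor AHR and the leucine zipper protein c-MAF (Maf) shape which cytokines are made, such as IL-22 and IL-10. AIOLOS (Ikzf3), BHLHE40 and NFIL3 act largely as repressors, and NFIL3 and BHLHE40 also belong to the circadian clock's circuitry.

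Total expected counts were between 19418012 and 20125124 per library, so depth differed little. Levels are given as CPM (counts per 1000000 counts of the library, with TMM scaling) and the KO against WT comparison was an edgeR quasi-likelihood test over 12680 genes, in which an adjusted p (Benjamini-Hochberg) under 0.05 counts as passing. Mapkapk5 was lower in both KO libraries (35.6 and 38.4 CPM against 20.04 and 21.6, adjusted p = 0.0194), although the test no longer passed without WT 1 (0.0918) or without WT 2 (0.169). The T cell genes Cd3e, Cd3d, Cd3g, Cd4, Cd5 and Lck summed to 2334 and 2395 CPM in WT and to 2106 and 2770 CPM in KO. Of 6 Th17 marker genes (Il17a, Il17f, Il23r, Ccr6, Il22 and Il1r1) all were detected in every library, with sums of 2724 to 3052 CPM in WT, 2924 in KO 1 and 989.7 in KO 2. Most of each sum was Il17f (1994 CPM in KO 1 and 637 in KO 2). In KO 1, Il23r, Il22 and Il1r1 (31.3 CPM against 54.9 and 47.8 in WT) were below both WT libraries. Il17a and Ccr6 were above both, and Il17f was between them.

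Of the 8 factor genes 1, Nfil3, fell in PRAK KO cells, 0 rose and 7 did not pass the test. Among all genes tested 13.4% passed, 8.23% lower and 5.14% higher in KO, so a single call among 8 genes is close to the background. Before adjustment 3 of the 8 genes had a p under 0.05, Nfil3, Irf4 and Bhlhe40, each of them lower in KO. Of all 12680 genes tested, 3776 had a smaller p than Bhlhe40 (0.0426 by edgeR), whose p was the largest of the 3, so such values were common. DESeq2 called the same 3 lower and 0 higher, beside 1303 lower and 968 higher among 16885 genes in its run. With a KO library left out, the remaining one is assumed to vary like the WT pair, and many more genes pass: 4726 of 13103 genes tested without KO 1, with 5 of the 8 lower, and 5999 of 12982 without KO 2, with 3 lower and 1 higher. With a WT library left out the spread comes from the KO pair, and 1 of the 8, lower in KO, passed each time (718 of 13151 genes without WT 1 and 693 of 13127 without WT 2). In 5 of the 8 genes the genotypes had separate ranges (Rora, Irf4, Bhlhe40 and Nfil3 lower and Ikzf3 higher in KO), where 63.0% of all genes tested did not overlap. This holds for CPM with TMM scaling. By TPM and FPKM, the length-scaled values of the authors, Rora overlapped, and Batf was higher in both KO libraries than in both WT libraries. The median log2 fold change of the 8 genes was -0.29, beside 0.02 over all genes tested.

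**Figure D1:**
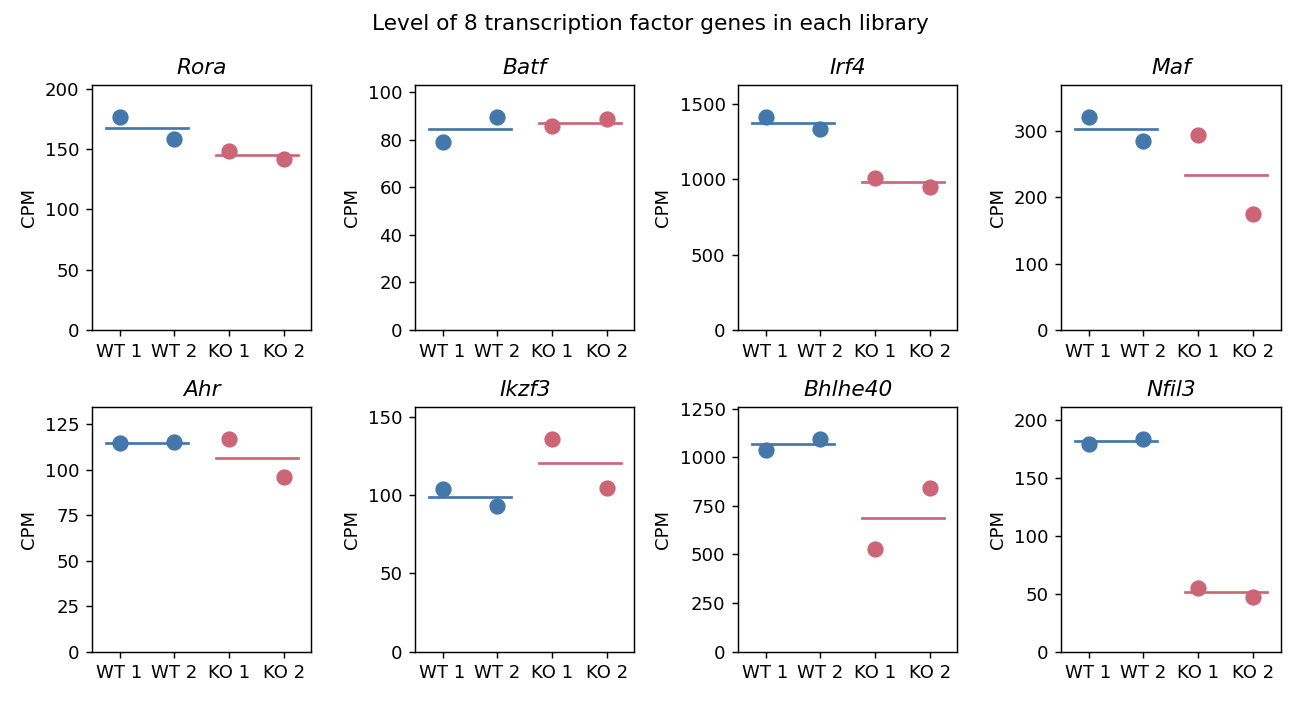
Level of each of the 8 genes in CPM (vertical axes, starting at 0) in the 4 libraries (horizontal axes), with points for libraries and lines for the mean of each genotype (blue WT, red KO). Nfil3 is near 180 CPM in WT and near 50 CPM in KO, while the KO points of Maf and Bhlhe40 lie far apart.

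Nfil3 encodes a leucine zipper repressor, also called E4BP4, that in helper T cells bears on cytokine choice and ties Th17 differentiation to the circadian clock. The gene (gene ID 18030) lies on the minus strand at chr13:52967209-52982878 (GRCm38.p6). WT 1 had 179.6 CPM and WT 2 had 184, while KO 1 had 55.1 and KO 2 had 47.2. Both KO libraries were far below both WT libraries, and the mice of each genotype lay close together. The mean fell from 182 ± 3.26 to 51.2 ± 5.59 CPM (SD, n = 2 each), so that the WT level was 3.55 times the KO level, with a log2 fold change of -1.83 ± 0.13 SE and a 95% interval of -2.15 to -1.51 (adjusted p = 0.00279). In all, 367 of the 12680 genes tested had a lower fold change than Nfil3, and 58 had a smaller p. With each library left out in turn the log2 fold change stayed between -1.95 and -1.73, with an adjusted p of at most 0.000194. In RNA of a whole culture, fewer cells that express a gene and less RNA per cell cannot be told apart.

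For each factor up to 2 genes were named as the closest in pattern, by the root mean square difference of log2 CPM after centring on the 4 libraries, among 7413 genes averaging 20 CPM or more. For Nfil3 they were Ier3, an immediate early gene that bears on cell survival, with a difference of 0.02, and Gys1, the muscle form of glycogen synthase, with a difference of 0.04. Ier3 measured 125 and 127 CPM in the WT mice against 39.2 and 34.05 in the KO mice (log2 change -1.79, adjusted p = 0.00284). Gys1 measured 222 and 230.3 CPM against 70.8 and 55.97 (-1.83, adjusted p = 0.00415). All 3 genes kept their calls with each library left out.

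Ier3 and Gys1 were picked for a pattern like that of Nfil3, so the shared fall of these 3 genes follows from the choice. The sequence before their start sites is shown, from RefSeq on GRCm38.p6, 5′ to 3′ on the strand of the gene. Each comes from a window of 250 bases before the start, without the bases nearest the start that GENCODE M21 places in an exon of the same gene (34 for Nfil3, 29 for Ier3 and 0 for Gys1). The runs are chr13:52981074-52981289 on the minus strand for Nfil3, chr17:35821463-35821683 on the plus strand for Ier3 and chr7:45434589-45434838 on the plus strand for Gys1. The Nfil3 window precedes the transcript start listed in RefSeq's promoter table and lies inside the gene's full span, whose end is farther upstream. Capitals mark ACGTG, a form of the core letters bound by HIF and the only form searched under that name.
Nfil3: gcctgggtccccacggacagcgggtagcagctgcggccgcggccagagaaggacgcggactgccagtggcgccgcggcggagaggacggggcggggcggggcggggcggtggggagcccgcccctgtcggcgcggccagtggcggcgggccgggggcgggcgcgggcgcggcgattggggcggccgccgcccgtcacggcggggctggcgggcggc
Ier3: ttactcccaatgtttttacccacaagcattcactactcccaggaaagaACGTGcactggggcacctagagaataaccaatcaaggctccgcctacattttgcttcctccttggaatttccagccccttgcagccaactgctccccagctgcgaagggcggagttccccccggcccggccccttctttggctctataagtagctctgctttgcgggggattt
Gys1: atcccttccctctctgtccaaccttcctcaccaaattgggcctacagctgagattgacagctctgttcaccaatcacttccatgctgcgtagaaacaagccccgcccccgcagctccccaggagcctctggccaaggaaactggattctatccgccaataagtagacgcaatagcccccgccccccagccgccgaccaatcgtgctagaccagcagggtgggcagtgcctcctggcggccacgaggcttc
The windows were rich in G and C, at 81.6% for Nfil3, 54.4% for Ier3 and 60% for Gys1. They were searched on both strands for 7 motifs, ACGTG (HIF), GCGTG (AHR with ARNT), CACGTG (the E-box of BHLHE40, which contains ACGTG), TTACGTAA (NFIL3), TGANTCA (AP-1 and BATF), the interferon response element and AGGTCA (the core of ROR receptor sites). Ier3 held 1 ACGTG, 202 to 198 bases before its start, where 16.6% of 32851 windows of the same length held at least 1. Nfil3 held 1 AGGTCA on the opposite strand, 12 to 7 bases before the start and thus in the exon part that is not shown (14.0% of windows), and Gys1 held none of the 7. Of the other 7 factor genes 3 had a window to search: Irf4 held 1 GCGTG (28.2% of windows), Rora held 1 ACGTG and 1 GCGTG, and Batf held none. The Rora window (chr9:68653536-68653785, plus strand) also lies inside the full span of its gene, which begins at 68653404. A match describes the letters and is no evidence of binding, and these letters may lie elsewhere around the genes.

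Bhlhe40 encodes a basic helix-loop-helix repressor that represses Il10 and is needed for Csf2 in pathogenic T cells (gene ID 20893, plus strand, chr6:108660629-108666925). In WT 1 and WT 2 it had 1039 and 1095 CPM, whereas KO 1 had 529.7 and KO 2 had 842. Both KO libraries lay below both WT libraries, but KO 2 was nearer to WT than to KO 1. The mean was 1067 ± 40.0 CPM in WT and 686 ± 221 CPM in KO, a log2 fold change of -0.64 ± 0.24 SE (95% interval -1.24 to -0.03) that did not pass (adjusted p = 0.143). The change was -1.02 with KO 2 left out (adjusted p = 1.53e-05) and -0.34 with KO 1 left out (0.0278), p-values that rest on the WT spread and leave out the gap between the KO mice. DESeq2 called the gene lower (adjusted p = 0.0378). Without a WT library it did not pass (0.392 without WT 1 and 0.521 without WT 2). Its closest genes in pattern were Npc2 and Ppox, with differences of 0.02 each. Between the KO mice the level differed 1.59-fold, and 7.23% of the 7542 genes of at least 20 CPM had a larger gap.

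**Figure D2:**
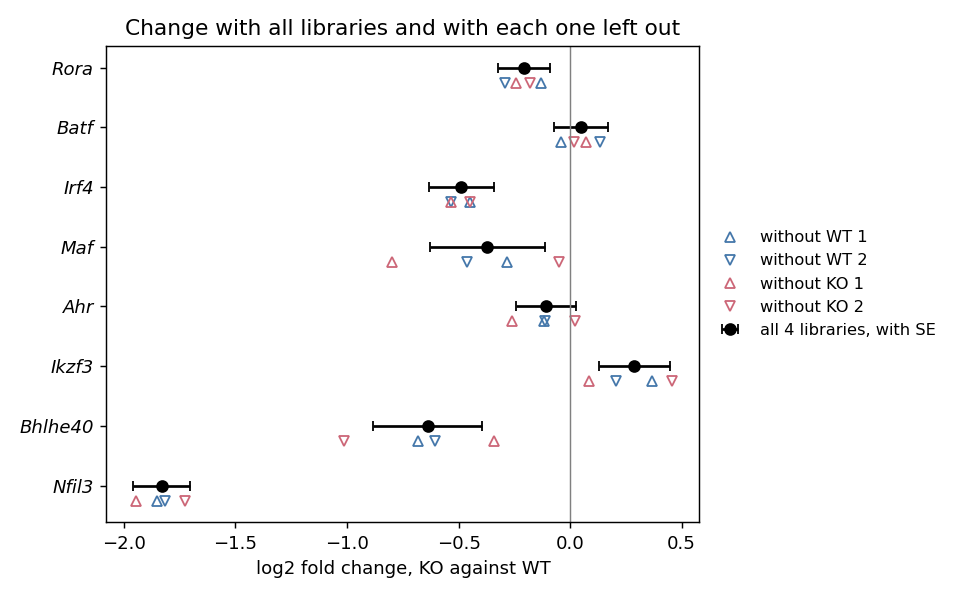
Log2 fold change of KO against WT (horizontal axis) for each of the 8 genes, as the value over all 4 libraries with its standard error (black) and the value with each library left out (triangles, blue for a WT and red for a KO library). Nfil3 stays between -1.95 and -1.73, while Maf and Bhlhe40 move most when a KO library is left out.

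Irf4 was the next in size among genes whose mice behaved alike (gene ID 16364, plus strand, chr13:30749233-30766981). The WT mice had 1416 and 1334 CPM (mouse 1, then mouse 2), and the KO mice had 1011 and 951. The groups did not overlap, and each pair of mice differed by a factor of only 1.06. The mean was 1375 ± 58.0 CPM in WT and 981 ± 42.5 in KO, or 0.713 times the WT level. The log2 fold change of -0.49 ± 0.15 SE (95% interval -0.85 to -0.12) did not pass (adjusted p = 0.0863). DESeq2 called it lower (adjusted p = 0.00587), as did edgeR, with the WT spread alone, without KO 1 (0.00346) and after leaving out KO 2 (0.00589), but edgeR did not without WT 1 (0.627) or WT 2 (0.588). Irf4 had at least 19129 counts in every library, so counting error was 0.723% at most. The genes nearest to it in pattern were the kinase gene Rps6ka4 (difference 0.01) and Anks1 (0.02). Rps6ka4 fell by 0.48 on the log2 scale (adjusted p = 0.0473), a call that was lost without WT 1 (0.436) or WT 2 (0.363).

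Batf, whose product is IRF4's partner at composite sites (gene ID 53314, plus strand, chr12:85686720-85709087), had the smallest difference of the 8. The WT libraries had 79.1 and 89.7 CPM, and KO 1 and KO 2 had 85.9 and 88.8 CPM. Both KO values lay between the WT values, whereas by TPM both KO libraries (196 and 189.7) were above both WT libraries (166 and 182). The log2 fold change was 0.05 ± 0.12 SE, with a 95% interval of -0.25 to 0.35 (adjusted p = 0.813). The sign turned without WT 1 (-0.043). Per length of gene, in TPM (a transcript's share, scaled for length), there was 3.32 times as much Irf4 as Batf in WT 1 and 2.76 times in WT 2, while KO 1 had 2.18 times and KO 2 1.98 times as much. That ratio was lower in both KO libraries, and was not tested. Tmed3 and Capn7 had the patterns nearest to Batf.

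Rora (gene ID 19883, plus strand, chr9:68653404-69388246) is the longest of the genes and encodes ROR alpha, a receptor that promotes Il17a and Il17f. The level was highest in WT 1 (177 CPM), then WT 2 (158), KO 1 (148) and KO 2 (142). On this scale the groups did not overlap, but WT 2 was only slightly above KO 1, and by TPM KO 1 (27.5) was above WT 2. The log2 fold change of -0.21 ± 0.12 SE (95% interval -0.50 to 0.09) did not pass (adjusted p = 0.288), and in none of the 12 alternative analyses did it pass (adjusted p between 0.0890 and 0.885). The nearest genes in pattern were Spin1 and Timm10b.

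Ahr encodes the aryl hydrocarbon receptor, which Th17 cells need for Il22 (gene ID 11622, minus strand, chr12:35497979-35534989). Both WT mice had 115 CPM, KO 1 had 117 and KO 2 had 95.8. Only KO 2 stood apart, and the groups overlapped. The log2 fold change was -0.11 ± 0.14 SE (95% interval -0.45 to 0.23, adjusted p = 0.623), and it was 0.023 with KO 2 left out and -0.26 with KO 1 left out (adjusted p = 0.0432 on the WT spread alone). Apobec3 and Pkmyt1 were the nearest in pattern, each with a difference of 0.01.

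Maf, the gene of c-MAF (gene ID 17132, minus strand, chr8:115703253-115706894), which activates Il10 and Il21, was the gene that differed most between the KO mice. WT 1 and WT 2 had 321 and 284 CPM, KO 1 reached 294 and KO 2 only 174. KO 1 lay between the WT mice, and KO 2 was far below them. The KO 1 level was 1.69 times the KO 2 level, and 5.16% of genes of at least 20 CPM had a larger gap. The mean was 303 ± 26.2 CPM in WT against 234 ± 84.7 (log2 change -0.37 ± 0.26 SE, 95% interval -1.01 to 0.27, adjusted p = 0.377). The change was -0.80 with KO 1 left out and -0.05 with KO 2 left out (adjusted p = 0.000283 and 0.745). These p-values take the spread from the WT pair and do not include the gap between the KO mice. Ccdc71l shared the pattern most closely, with a difference of 0.03.

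Ikzf3 encodes AIOLOS, a zinc finger protein of the Ikaros family that silences Il2 in Th17 cells (gene ID 22780, minus strand, chr11:98464610-98546031). By CPM with TMM scaling it was the only one of the 8 genes with higher values in both KO libraries than in both WT libraries, and by TPM Batf was a second such gene. From WT 1 and WT 2 (104 and 93.3 CPM) the level was 136 in KO 1 and 105 in KO 2, so KO 2 was barely above WT 1. The log2 fold change of 0.29 ± 0.16 SE (95% interval -0.11 to 0.69) did not pass (adjusted p = 0.281). It was 0.46 without KO 2, when the gene was called higher on the WT spread alone (adjusted p = 0.00223), and 0.09 without KO 1 (0.529). Celf1 and Ppp2cb were the nearest in pattern.

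**Figure D3:**
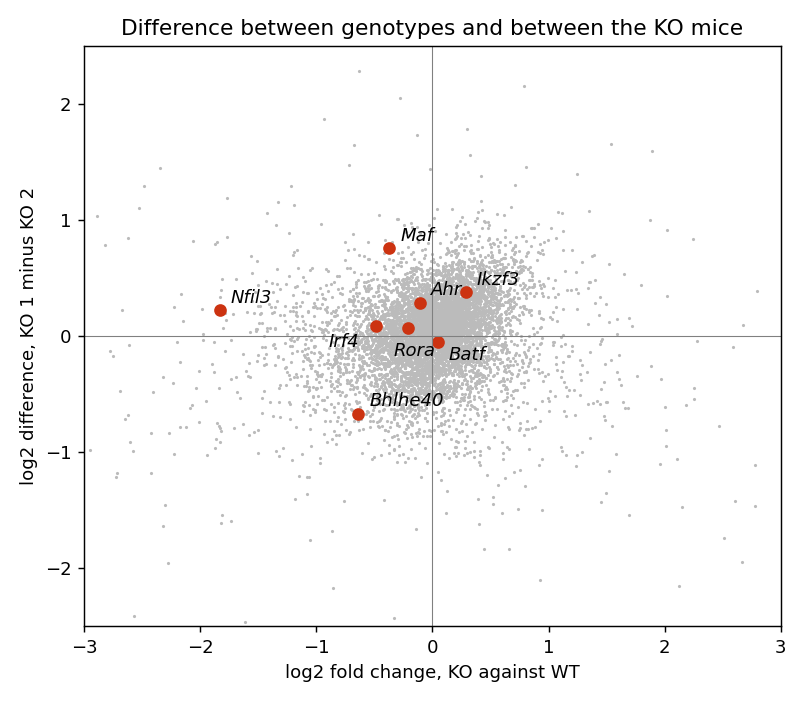
Log2 fold change of KO against WT (horizontal axis) against the log2 difference between KO 1 and KO 2 (vertical axis) for genes averaging 20 CPM or more (grey, of which 44 lie outside the axes) and the 8 factor genes (red). Nfil3 lies far to the left with a small difference between the KO mice, and Maf and Bhlhe40 lie on opposite sides of the horizontal line.

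The KO mice differed from each other in opposite directions at Maf and Bhlhe40. Maf was higher in KO 1 by 0.75 on the log2 scale, and Bhlhe40 was lower in KO 1 by a log2 difference of -0.67. The median size of the difference between KO 1 and KO 2 was 0.26 over the 8 genes and 0.23 over the 7542 genes of at least 20 CPM. Between WT 1 and WT 2 it was 0.12 over the 8 genes and 0.09 over all of those genes. Counting error was no more than 3.24% for any of the 8 genes in any library, from the 950 reads of Nfil3 in KO 2.

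Compared per length, the order of the factors was similar in all libraries apart from Nfil3. Bhlhe40 and Irf4 led, with 614 and 627 TPM of Bhlhe40 and 550 and 502 TPM of Irf4 in the WT libraries. In KO 1 they changed places (341 TPM of Bhlhe40 and 428 of Irf4), and in KO 2 they did not (507 and 377), so their order does not hold beyond the spread between the KO mice. In WT the next places belonged to Nfil3 (168 and 167 TPM), Batf (166 and 182) and Maf (162 and 139), and the Batf values lie on both sides of those of Nfil3. Ikzf3, Ahr and Rora followed, with 46.2, 38.2 and 29.96 TPM in WT 1 and in the same order in WT 2. In both KO libraries Nfil3 had gone below Ikzf3, with 56.4 TPM against 66.3 in KO 1 and 44.4 TPM against 46.7 in KO 2. Ahr and Rora kept the last places in each library.

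**Figure D4:**
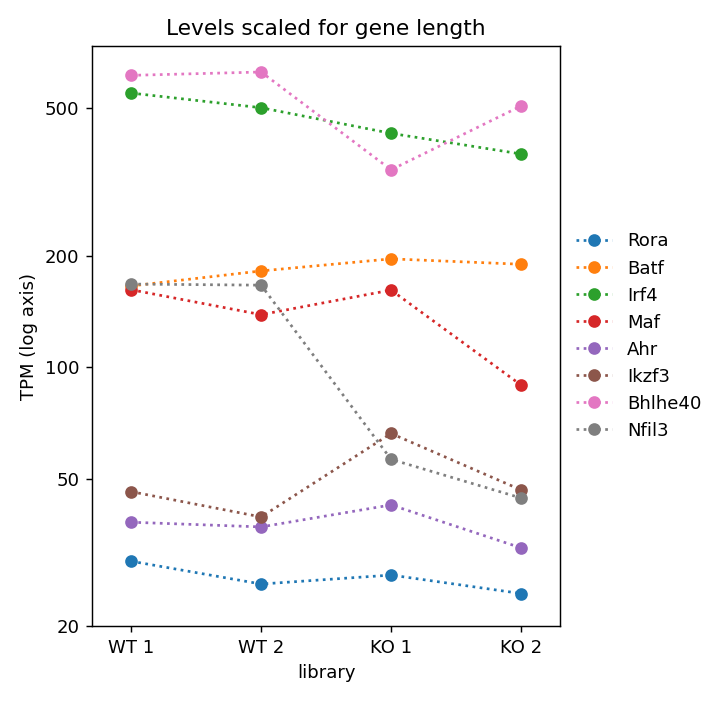
TPM (log axis) of the 8 genes in the 4 libraries, with dotted lines joining the points of a gene for identification. Nfil3 drops from the level of Batf and Maf in WT to that of Ikzf3 in KO, and the others keep their order except Bhlhe40 and Irf4 in KO 1.

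The factor genes were well expressed in every library. Irf4 was never lower than place 316 among the 17921 genes by TPM, and Rora, the lowest of the 8, never lower than place 5575. Nfil3 went from places 880 and 856 in WT to places 3167 and 3573 in KO. The effective gene length that the authors' counts and FPKM imply was stable for all 8 genes. Its highest value exceeded its lowest by 2.46% for Ikzf3, 2.03% for Nfil3 and at most 0.375% for the others, where the median over 7729 genes of at least 5 FPKM was 0.664%. A shift between long and short transcripts of a gene would move this length. Counts of Maf and Rora were fractions in all 4 libraries, as RSEM gives where it divides reads among several places, so these levels carry that uncertainty.

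Of 26 relatives from the same gene families 21 could be tested, and 1 rose, 0 fell and 20 did not pass. The one that rose was Irf5, a factor of myeloid and B cells (12.3 and 10.9 CPM against 26.04 and 32.3 in KO, a log2 fold change of 1.33 with adjusted p = 0.0128), and it held with each library left out. At an unadjusted p under 0.05 edgeR had 3 relatives lower (Maff, Ikzf4 and Dbp), and DESeq2 called 2 lower. Leaving out KO 1 gave 8 higher and 5 lower relatives, and leaving out KO 2 gave 4 and 6. Irf8 had 230.5 and 239 CPM in the WT mice against 238 and 264 in the KO mice (adjusted p = 0.630), Ikzf1 had 541 and 519.9 against 437 and 449 (0.230), and Ikzf4 had 172 and 185 against 127 and 131 (0.0503). Batf3 and Dbp differed widely between the KO mice and did not pass.

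Of 14 genes whose products bind with the factors 2 rose, 3 fell and 9 did not pass. Fosl1 rose from 4.87 and 3.76 CPM in WT to 18.4 and 23.7 CPM in KO (a change of 2.28 on the log2 scale, adjusted p = 0.00681). Jun rose by 0.83 (adjusted p = 0.0209). Fosl2, an AP-1 protein that restrains Th17 plasticity, fell from 563 and 544 CPM to 219.5 and 295 CPM (-1.10, adjusted p = 0.0202). Stat3 (-0.91) and Ets1 (-0.82) also fell. Junb, the main AP-1 partner of BATF in Th17 cells, had 1138 and 1063 CPM in the WT mice against 1047 and 1043 in the KO mice (-0.08, adjusted p = 0.756), and the AHR partner Arnt had -0.24 (0.316). The calls of Fosl1 and Fosl2 held with each library left out, and those of Jun, Stat3 and Ets1 were lost without WT 1 (adjusted p = 0.153, 0.166 and 0.248) or WT 2 (0.0690, 0.117 and 0.182).

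Among 40 other regulators of the Th17 network 7 rose, 7 fell and 26 did not pass, with a median log2 fold change of -0.08. Those that fell were Stat3, Runx3, Fosl2, Ets1, Zeb1, Crem and Xbp1, with changes between -1.10 and -0.53. Those that rose included factors of other helper lineages, Tbx21 (1.28) for Th1 and Foxp3 (1.16) for regulatory T cells, as well as Egr1, Egr2, Rel, Nfatc1 and Nfkbie of the receptor response. Stat3, Fosl2, Ets1, Junb and Runx1 are also among the binding genes above, so the falls of Stat3, Fosl2 and Ets1 are counted in both lists. Egr1 and Egr2 are counted again in the early T cell receptor response below. Fosl2 and Foxp3 kept their calls with each library left out. Without WT 1 the list held 2 higher and 1 lower gene and without WT 2 it held 3 and 1, against 15 and 13 without KO 1 and 11 and 17 without KO 2.

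**Figure D5:**
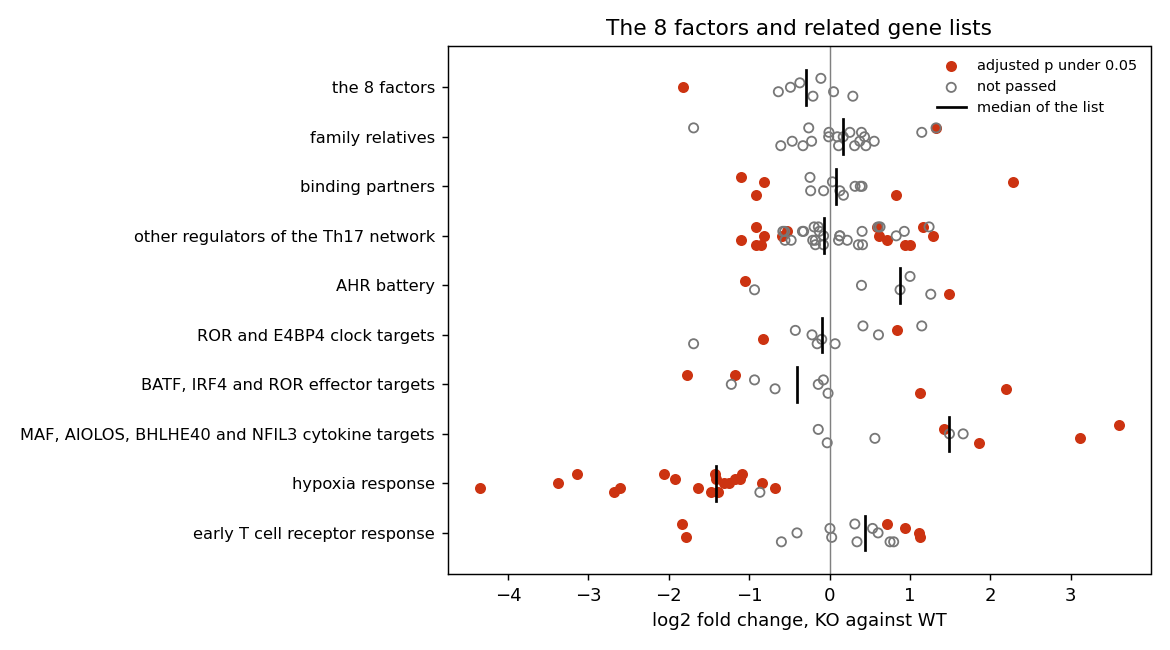
Log2 fold change of KO against WT (horizontal axis) for the tested genes of each list, each a circle, filled red where the adjusted p was under 0.05, with a black bar at the median of the list. The 8 factors hold 1 passing gene, and in the hypoxia response 19 of 20 genes lie in the passing group below 0.

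Of 7 AHR-responsive genes tested 1 rose, 1 fell and 5 did not pass, with a median log2 fold change of 0.88. Cyp1a1, the classical AHR target, rose from 5.64 and 4.97 CPM to 15.2 and 14.4 CPM (log2 fold change 1.48, adjusted p = 0.0117, and 0.0644 without WT 2). Tiparp, which feeds back on AHR, fell from 119 and 124 CPM to 70.1 and 47.1 CPM (-1.05, adjusted p = 0.0306), but limma on log2(TPM + 1) called 0 genes of this list lower. Il22 had 244 and 217 CPM in WT, 189.8 in KO 1 and 51.8 in KO 2 (-0.93, adjusted p = 0.310). Leaving out KO 2 gave 4 higher and 2 lower genes, and leaving out KO 1 gave 1 and 3.

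Clock genes that ROR receptors and NFIL3 act on also went both ways, with 1 of 11 higher, 1 lower and 9 not passing. Nr1d1, the gene of a receptor that competes with ROR receptors and represses Nfil3, rose from 7.69 and 7.68 CPM to 13.1 and 14.4 CPM (0.84, adjusted p = 0.0401). Per1, a period gene, fell from 163 and 169 CPM to 89.1 and 97.3 CPM (-0.83, adjusted p = 0.0128). Both calls were lost without WT 1 (0.316 for Nr1d1 and 0.0584 for Per1) and without WT 2 (0.351 and 0.0806), while 4 genes were higher and 2 lower when KO 1 was left out, and 1 and 3 when KO 2 was. Arntl had 33.2 and 33.1 CPM in the WT mice against 31.7 and 27.9 in the KO mice (adjusted p = 0.466).

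Of 10 effector genes bound by BATF, IRF4 or ROR receptors 2 rose, 2 fell and 6 did not pass. Ccr6, a chemokine receptor (22.9 and 22.5 CPM against 53.2 and 45.4), and its ligand Ccl20 (5.79 and 4.34 CPM against 29.9 and 16.7) rose and did so with each library left out. Ctla4 (log2 fold change -1.18) and Il23r (-1.77) fell, but without WT 2 neither passed (adjusted p = 0.0628 and 0.0721), and Il23r did not pass without WT 1 (0.0763). Limma on log2(TPM + 1) called 1 gene of the list lower. Il21, a target of both BATF and c-MAF, had 300.2 and 268 CPM in the WT mice against 290.04 and 225 in the KO mice (-0.14, adjusted p = 0.600). Without KO 1 the list held 2 higher and 7 lower genes, and without KO 2 it held 3 and 4.

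Of 9 cytokine and checkpoint genes controlled by c-MAF, AIOLOS, BHLHE40 or NFIL3 4 rose, 0 fell and 5 did not pass by edgeR, with none lower at an unadjusted p under 0.05 and 0 lower by DESeq2. With KO 1 left out 6 were higher and 2 lower, and with KO 2 left out 7 were higher. Il2, which AIOLOS represses, rose from 19.1 and 12.4 CPM to 105 in KO 1 and 276 in KO 2. Its log2 change of 3.59 passed (adjusted p = 0.0146), a call lost without WT 1 (0.261) or WT 2 (0.361). Csf2 (1.86, adjusted p = 0.00693) and Ifng (3.12, adjusted p = 0.00738) rose with each library left out, and Il13 rose from 3.999 and 4.18 to 8.66 and 13.3 CPM (1.42, adjusted p = 0.0331) but not without WT 1 (0.123) or WT 2 (0.112). Il10, a target of c-MAF, had 39.5 and 33.1 CPM in WT, 47.0 in KO 1 and 24.2 in KO 2 (-0.03, adjusted p = 0.959). Maf and Il10 were both lowest in KO 2 among the 4 libraries, as were Rora, Irf4, Ahr, Nfil3 and Il21. Batf, Ikzf3 and Bhlhe40 were not lowest there. A link between Maf and Il10 was not tested.

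In the hypoxia response, to which Nfil3 and Bhlhe40 have also been linked, 19 of 20 genes fell and 1, Car9, did not pass. The median log2 fold change was -1.42, beside -1.83 for Nfil3 and -0.64 for Bhlhe40, which did not pass. Whether the hypoxia response had a part in either change was not tested. Bnip3, a mitophagy gene, stood at 358 and 389 CPM in the WT mice against 59.4 and 62.8 in the KO mice. Pdk1 stood at 234 and 247 CPM against 73.5 and 81.8. With WT 1 or WT 2 left out 17 of the genes were lower, and no call was lost without a KO library. In the early T cell receptor response, which induces Irf4, 4 of 16 genes rose, 2 fell and 10 did not pass, and the genes that fell were Tnfrsf9 (-1.84) and Ier3 (-1.79). Among the 4 that rose, Egr1 did not pass without WT 2 (adjusted p = 0.104), Egr2 did not pass without either WT library (0.125 and 0.246), and Cd69 did not pass without WT 1 (0.0508). With KO 1 left out the response had 9 higher and 3 lower genes, and with KO 2 left out 5 and 4.

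Of 10 myeloid markers 6 rose, with sums of 69.9 and 103 CPM in WT and of 169 and 327 CPM in KO, a median log2 fold change of 2.47 and none at 0 in any library. Of these 6 calls 3 held without WT 1 and 4 without WT 2, limma on log2(TPM + 1) called 4 markers higher, and DESeq2 called 9. The 8 B and plasma cell markers summed to 42.7 and 91.9 CPM in WT and to 113 and 108 CPM in KO, with 1, Ms4a1, called higher (4 with WT 2 left out). The 7 CD8 T and NK cell markers tested summed to 181 and 335 CPM in WT and to 898 and 506 CPM in KO, and Nkg7 alone was called (adjusted p = 0.0402, lost without KO 2, WT 1 or WT 2). The largest part of each sum was Gzmb (118 and 190 CPM in WT, 530 in KO 1 and 201 in KO 2), which did not pass (adjusted p = 0.147 by edgeR). Klrd1 and Prf1 overlapped between the genotypes. Ncr1, which defines NK cells, had 0 counts in both WT libraries and 1 count in each KO library. The part of these cells in the values of the 8 factors and their targets was not tested.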

How the data were processed

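RNA-seq was analysed from Th17 cell cultures of 2 PRAK KO and 2 WT mice. The deposited table gives RSEM expected counts, FPKM (scaled to length and library size by the authors) and TPM (scaled by the authors to a sum of 1000000 per library), per the file headers. RSEM 1.2.12, Bowtie2 2.2.5, HISAT2 2.0.4 and GRCm38.p6 appear in the submitters' processing notes, with no role or order. Kit, strand and annotation were not given in the sources used here, so overlapping or antisense genes may share reads.

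Expected counts were rounded, filtered with filterByExpr (minimum count 10, minimum total 15; 12680 of 17921 genes kept, all 8 factors among them) and scaled with TMM. Genotype was tested with edgeR 4.0.16 in R 4.3.3 (robust quasi-likelihood, Benjamini-Hochberg over all genes tested). Residual degrees of freedom were 2, with 3.58 prior degrees of freedom. Each standard error is the log2 change over the root of F, and 95% intervals use the t distribution on the sum of those degrees of freedom. CPM with TMM scaling is given as mean ± SD. DESeq2 1.42.0 and limma 3.58.1 on log2(TPM + 1) were among the alternatives. The steps were tested on simulated data.

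The 8 genes, the lists and the rule for named genes were chosen with earlier results of these data known. The rule names the 8 factors, Mapkapk5, up to 6 passing members of each list by smallest p, and the 2 genes nearest in pattern to each factor (named genes, mean of at least 20 CPM). Other genes named were chosen after their values were seen. Other factors of the lineage are not analysed here, and 1 gene that the rule names is not reported here. Coordinates are from RefSeq on GRCm38.p6, matched by gene ID, and strands from GENCODE M21. FPKM served for the effective length and for checking whether the genotypes overlapped. TPM served for comparing genes, for the same check and in the limma alternative.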

Additional observations from a re-analysis of the deposited data

How the results depend on the processing

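Nfil3 was lower and passed in all 12 alternatives run (log2 fold change between -1.95 and -1.72). DESeq2 called 3 of the 8 genes lower, beside 1303 lower and 968 higher among all 16885 genes in its run. With a replicate block on the mouse numbers, which name different animals (correlation of same-numbered deviations 0.17), 2 were called lower, Bhlhe40 joining Nfil3 (adjusted p = 0.0269), and over all genes 1338 were higher and 1597 lower in place of 652 and 1043. Leaving out each library gave 1 to 5 of the 8 genes lower and 0 to 1 higher, and 209 to 2881 genes higher and 450 to 3118 lower overall. Batf ranged from -0.043 (without WT 1) to 0.14, and Ahr from -0.26 to 0.023 (without KO 2), so that both changed sign. Scaling by library size gave 918 genes higher and 864 lower (51.5% of calls higher, 38.5% with TMM), with a shift of 0.10 in the median of all genes, and none of the 8 genes changed sign. The cause of these moves was not tested. Depth set a counting error of at most 3.24% on any level of the 8 genes.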
